A study of Mus musculus with 4 samples.

Results

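The 8 genes described here encode the main costimulatory molecules of T cells and were chosen by name. They are Cd28, Icos, Cd27, Cd40lg, Tnfrsf4 (OX40), Tnfrsf9 (4-1BB), Tnfrsf18 (GITR) and Cd226 (DNAM-1), 8 of the 32285 genes in the count matrices. Their unique molecular identifiers (UMIs, 1 per captured transcript) were read in draining lymph node cells of wildtype C57BL/6 mice by droplet 3′ single-cell RNA-seq, in 2 control and 2 EV libraries. Mice of the EV group were given 100 µg of extracellular vesicles (EVs) from induced pluripotent stem cells under the skin. Control mice received PBS in the study's methods and are labelled as untreated, and the nodes were taken on day 5 in the design text, whereas the sample labels give 24 h. The methods call the libraries biological replicates, and the number of mice behind each is not given in the sources used here. No cells were enriched before loading.

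A T cell that meets antigen through its receptor needs a further, costimulatory signal to divide, to make cytokines and to survive. Cd28 and Icos belong to the immunoglobulin superfamily and signal through phosphoinositide 3-kinase, Cd226 is an adhesion receptor that competes with inhibitory receptors for shared ligands, and the tumour necrosis factor (TNF) receptor family members Cd27, Tnfrsf4, Tnfrsf9 and Tnfrsf18 signal through TRAF adaptors to NF-kB. Cd40lg is itself a ligand of the TNF family, by which helper T cells license B cells and dendritic cells. In lymph nodes Cd28 and Cd27 are made by resting T cells, whereas Icos, Tnfrsf4 and Tnfrsf9 are known as receptors of activated and regulatory T cells.

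Cells were placed in 4 gates by the UMIs of lineage genes that are not among the 8. CD4 T cells held Cd3e and Cd4 and no Cd8a, Cd79a or Foxp3, Treg cells held Foxp3 and Cd3e, CD8 T cells held Cd3e and Cd8a and no Cd4 or Cd79a, and B cells held Cd79a and no Cd3e. Of 32725 cells that passed the filter, 4890 were CD4 T, 636 Treg, 5901 CD8 T and 14686 B cells. Control libraries 1 and 2 and EV libraries 1 and 2 gave 1288, 1531, 869 and 1202 CD4 T cells and 213, 172, 117 and 134 Treg cells. The libraries held from 50749656 to 70418672 UMIs, and the median CD4 T cell held from 6007 UMIs (control library 1) to 8363 UMIs (EV library 1). Every pair of libraries shared 12 to 26 cell barcodes, at most 0.3% of the smaller library. The labels of the gates held against their markers with limits in the Treg gate. Treg cells held 3188 to 3643 UMIs set to a common total (CPM) summed over 6 Treg markers against 150 to 183 CPM in CD4 T cells, but also 139 to 650 CPM over 6 B cell markers, and 12 to 28 of them per library held a Cd79a UMI. The Treg markers include Foxp3, which the gates require in Treg cells and exclude in CD4 T cells, so part of that gap was fixed in advance. The markers that the gates do not use, Ctla4, Ikzf2, Il2ra, Lrrc32 and Ikzf4, were each called higher in Treg than in CD4 T cells. Of the Treg cells, 6 to 16 per library also met the CD8 T gate. The part of these cells in the Treg levels was not tested beyond the stricter gate given with the results. The CD4 T gate asks for a Cd4 UMI and the Treg gate does not. In control libraries 1 and 2 and EV libraries 1 and 2, 99, 70, 42 and 52 Treg cells held no Cd4 UMI. Cd4 was called lower, and Cd8a and Cd8b1 higher, in Treg than in CD4 T cells. The calls of Cd4 and Cd8a were fixed by the gates, since CD4 T cells had to hold Cd4 and no Cd8a. The stricter Treg gate does not ask for Cd4 either, and the part of cells without it was not tested.

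The genes lie on 5 chromosomes of the mm10 (GRCm38) assembly, and 2 pairs are neighbours. Tnfrsf4 (chr4:156013843-156016612, + strand) and Tnfrsf18 (chr4:156026164-156028895, + strand) are 9551 bases apart with no protein-coding gene between them, and Tnfrsf9 (chr4:150914562-150946102, + strand) is on the same chromosome. Cd28 (chr1:60716800-60773359, + strand) and Icos (chr1:60977927-61000320, + strand) are 204567 bases apart, and Ctla4, which encodes an inhibitory receptor for the ligands of Cd28, is the 1 protein-coding gene between them. Cd27 (chr6:125232622-125237010) is on the − strand, and Cd40lg (chrX:57212143-57224042) is on the + strand. In the GENCODE annotation Tnfrsf18 overlaps Gm16008 and Tnfrsf9 overlaps Camta1 on the opposite strand, Cd27 overlaps Vamp1 on the opposite and Mir8113 on its own strand, and Icos overlaps Gm37039 on its own strand. The strand setting of the counting is not given in the sources used here, so reads of these pairs could have been shared or dropped.

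RefSeq promoter windows of 300 bases, from 250 bases before to 50 after an annotated start, were at hand for 4 of the 8 genes. They are shown for the 3 TNF receptor genes of chromosome 4, whose transcripts were the most enriched in Treg cells, and for Cd27, which was level between Treg and CD4 T cells. Each is read 5′ to 3′ on the gene's strand from GRCm38.p6, and capitals mark motif matches. The windows are chr4:150927749-150928048 (+) for the second annotated start of Tnfrsf9, chr4:156013445-156013744 (+) for Tnfrsf4, chr4:156026072-156026371 (+) for Tnfrsf18 and chr6:125236978-125237277 (−) for Cd27.
Tnfrsf9: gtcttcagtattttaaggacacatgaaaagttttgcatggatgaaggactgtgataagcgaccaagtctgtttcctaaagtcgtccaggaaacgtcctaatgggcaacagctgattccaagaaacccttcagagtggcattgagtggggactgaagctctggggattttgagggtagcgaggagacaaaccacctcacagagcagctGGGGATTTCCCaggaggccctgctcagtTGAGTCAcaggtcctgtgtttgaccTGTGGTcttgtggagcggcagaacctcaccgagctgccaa
Tnfrsf4: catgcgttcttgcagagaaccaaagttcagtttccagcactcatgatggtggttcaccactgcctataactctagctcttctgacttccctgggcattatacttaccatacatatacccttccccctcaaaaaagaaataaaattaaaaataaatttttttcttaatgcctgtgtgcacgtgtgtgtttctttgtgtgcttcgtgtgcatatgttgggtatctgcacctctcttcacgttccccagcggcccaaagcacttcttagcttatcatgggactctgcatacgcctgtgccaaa
Tnfrsf18: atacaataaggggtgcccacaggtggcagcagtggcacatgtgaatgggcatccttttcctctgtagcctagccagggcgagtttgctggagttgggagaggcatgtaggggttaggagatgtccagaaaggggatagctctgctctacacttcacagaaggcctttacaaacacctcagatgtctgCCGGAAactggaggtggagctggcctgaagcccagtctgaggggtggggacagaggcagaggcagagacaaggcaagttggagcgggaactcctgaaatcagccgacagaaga
Cd27: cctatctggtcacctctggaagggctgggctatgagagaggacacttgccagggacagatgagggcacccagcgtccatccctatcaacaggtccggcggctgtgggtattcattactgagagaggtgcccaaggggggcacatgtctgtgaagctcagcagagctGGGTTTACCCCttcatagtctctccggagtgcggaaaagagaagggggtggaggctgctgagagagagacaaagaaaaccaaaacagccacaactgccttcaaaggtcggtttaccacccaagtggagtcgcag

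Both strands were searched for 5 motifs, and a match is a description of the letters only. The window of the second Tnfrsf9 start held 2 overlapping matches to the NF-kB pattern (GGG, any 5 bases, then CC), GGGGATTTCC from base −43 and GGGATTTCCC from base −42 relative to the start, an AP-1 match TGAGTCA from base −15 and a RUNX match TGTGGT from base 10. The first Tnfrsf9 start and Tnfrsf4 held none of the 5 motifs, Tnfrsf18 held the ETS motif CCGGAA from base −63, and Cd27 held the NF-kB pattern from base −84 (GGGTTTACCC) and, overlapping it on the other strand, from base −83. Among 32851 mouse promoter windows of the same length, 50.8% held the NF-kB pattern, 7.81% the AP-1 motif TGANTCA, 16.8% the RUNX motif TGTGGT, 14.9% the ETS motif CCGGAA and 3.65% the forkhead motif TGTTTAC.

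Each of the 8 genes differed between at least a pair of the T cell gates. Levels are given as CPM of the summed UMIs of a gate, scaled by trimmed means (TMM), in control libraries 1 and 2 and EV libraries 1 and 2 in this order. This scaling was done for each gate alone, so levels of different gates are not on a shared scale. The tests between gates scaled both gates together. Treg cells against CD4 T cells were tested over the 4 libraries with library as a block, and 6 of the 8 genes passed the test where 24% of the 11624 genes tested did. All 8 genes passed the filter on low counts in every gate. Tnfrsf4, Tnfrsf9, Tnfrsf18 and Icos were higher in Treg cells, Cd28 and Cd40lg were lower, and Cd27 and Cd226 did not pass the test.

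Tnfrsf4, the receptor for OX40 ligand that prolongs the survival of activated T cells, was at 223, 492, 539.5 and 325 CPM in Treg cells. In CD4 T cells it was at 21.6, 19.6, 31.4 and 24.2 CPM. All 4 Treg values lay above all CD4 T values, and the log2 fold change was 3.86 ± 0.13 (SE, adjusted p = 1.23e-12). Tnfrsf9, which sustains responding CD8 T cells and marks activated Treg cells, was at 64.2, 114, 296 and 117 CPM in Treg cells. It was at 10.6, 7.05, 13.6 and 9.88 CPM in CD4 T cells, a log2 fold change of 3.59 ± 0.19 (SE, adjusted p = 2.45e-10). EV library 1 held the highest Treg value of Tnfrsf9 and control library 1 the lowest, with no overlap between gates. Tnfrsf18, which lowers the threshold for activation and is a classical surface marker of Treg cells, was at 188, 236, 338 and 212 CPM in Treg cells. It was at 43.8, 46.2, 53.3 and 37.9 CPM in CD4 T cells, a log2 fold change of 2.27 ± 0.09 (SE, adjusted p = 3.68e-12). Icos, a receptor for Icosl on B cells that supports follicular helper and Treg cells, was at 318, 439.9, 639 and 398 CPM in Treg cells. In CD4 T cells Icos was at 83.1, 97.6, 127 and 109 CPM, and the log2 fold change was 1.95 ± 0.07 (SE, adjusted p = 3e-12). These 4 genes were called in 13 of 13 settings run for this comparison, the main one included.

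**Figure D1:**
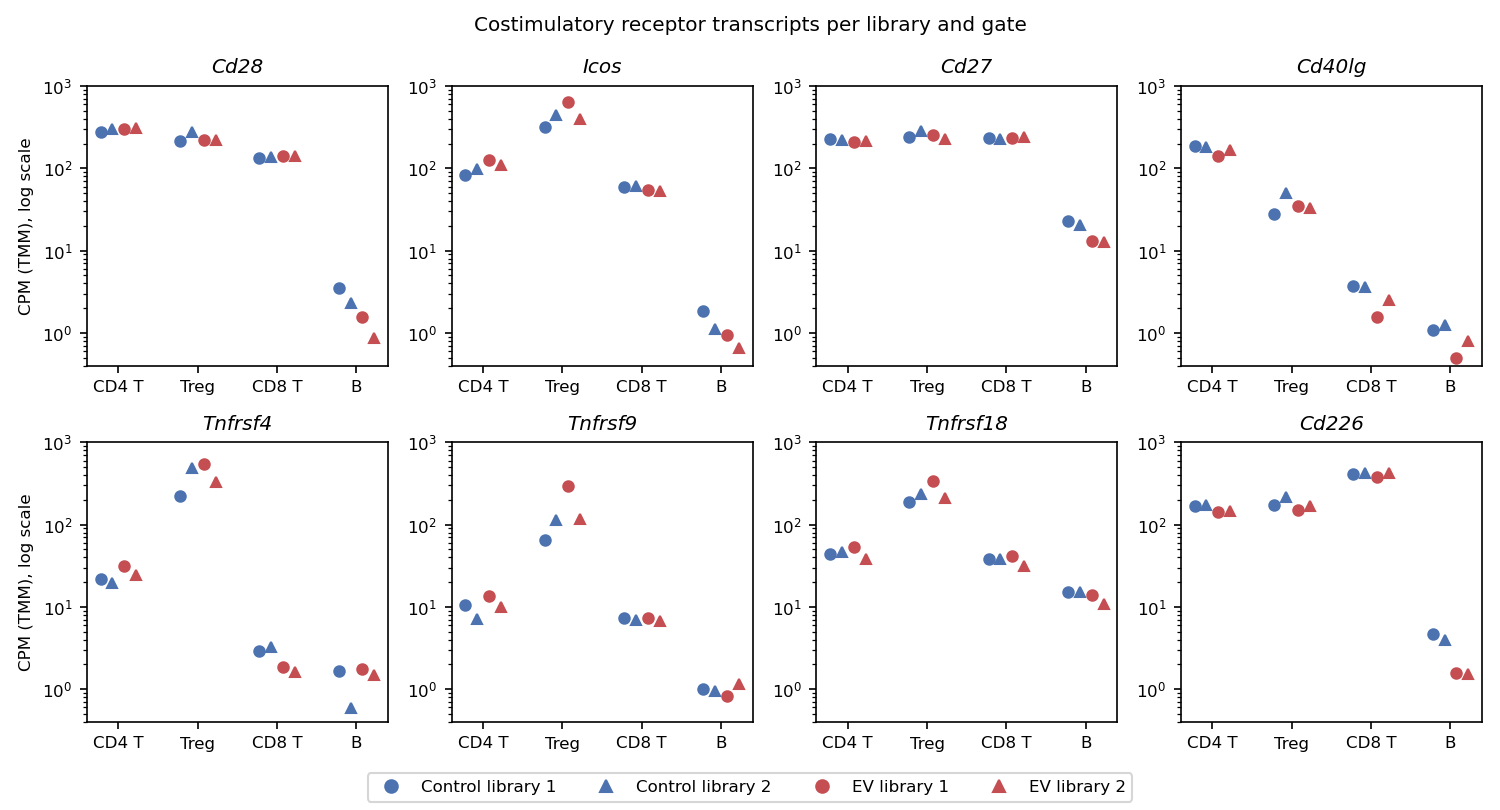
Levels of the 8 genes in each gate, as CPM on a log axis, 1 point for each library (circles for libraries 1, triangles for libraries 2, blue for control, red for EV). Tnfrsf4, Tnfrsf9, Tnfrsf18 and Icos have their highest points in Treg cells, Cd226 in CD8 T cells and Cd40lg in CD4 T cells, and B cells have the lowest points of each gene except where Tnfrsf4 in B cells reaches the range of CD8 T cells.

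Cd40lg and Cd28 went the other way. Cd40lg, the ligand with which helper T cells engage Cd40, was at 185, 181, 141 and 168 CPM in CD4 T cells. It was at 27.9, 50.3, 34.9 and 33.2 CPM in Treg cells, a log2 fold change of −2.36 ± 0.12 (SE, adjusted p = 8.68e-11). Cd28, the receptor for Cd80 and Cd86 and the first costimulator of resting T cells, was at 273, 300.3, 302 and 309 CPM in CD4 T cells and at 215, 277, 223 and 221 CPM in Treg cells. With each gate scaled alone, the Treg values of Cd28 overlapped the CD4 T range only at control library 2. Within every library the Treg value lay below the CD4 T value, and the log2 fold change was −0.47 ± 0.07 (SE, adjusted p = 2.66e-05). Cd27, the receptor for Cd70, was at 227, 222, 211 and 216 CPM in CD4 T cells and at 241, 287, 256 and 227 CPM in Treg cells, with a log2 fold change of 0.07 ± 0.07 (SE, adjusted p = 0.516). Cd226, the receptor for Pvr and Nectin2, was at 167, 174, 141 and 144 CPM and 171, 216, 148 and 167 CPM, with a log2 fold change of 0.02 ± 0.07 (SE, adjusted p = 0.861). The ranges of Cd27 and Cd226 in CD4 T and Treg cells overlapped.

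CD8 T cells were set against CD4 T cells in the same way, and all 8 genes passed the test where 37.8% of 12589 genes did. Cd226 and Cd27 were higher in CD8 T cells and the other 6 genes lower. Cd226 (chr18:89176967-89272229, + strand) was at 409, 419.5, 377 and 426 CPM in CD8 T cells, above every value of the other gates, and differed from CD4 T cells by a log2 fold change of 1.44 ± 0.04 (SE, adjusted p = 1.83e-12). Cd40lg was at 3.71, 3.63, 1.57 and 2.52 CPM, a log2 fold change of −5.78 ± 0.08 (SE, adjusted p = 7.95e-16), and these CD8 T levels lay above the 1.07, 1.25, 0.491 and 0.801 CPM found in B cells. Tnfrsf4 was at 2.88, 3.22, 1.87 and 1.61 CPM in CD8 T cells, a log2 fold change of −3.19 ± 0.18 (SE, adjusted p = 2.69e-09). Its CD8 T values overlapped those of B cells, which were 1.65, 0.589, 1.74 and 1.49 CPM.

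Cd28 was at 132, 137, 139 and 139.8 CPM in CD8 T cells, and its log2 fold change from CD4 T cells was −1.05 ± 0.03 (SE, adjusted p = 1.51e-12). Icos was at 58.8, 60.7, 54.4 and 52.8 CPM, with a log2 fold change of −0.80 ± 0.08 (SE, adjusted p = 2.92e-06). For both genes each CD8 T value lay below each CD4 T value. The last 3 genes differed little. Cd27 was at 236, 226, 236 and 243 CPM in CD8 T cells, a log2 fold change of 0.16 ± 0.03 (SE, adjusted p = 0.00103). Tnfrsf18 was at 38.6, 37.7, 41.8 and 31.1 CPM, a log2 fold change of −0.22 ± 0.05 (SE, adjusted p = 0.00344). Tnfrsf9 was at 7.35, 6.97, 7.38 and 6.81 CPM, a log2 fold change of −0.42 ± 0.13 (SE, adjusted p = 0.0211). With each gate scaled alone, ranges over libraries of the 2 gates overlapped for these 3 genes. Within every library Cd27 was higher and Tnfrsf18 lower in CD8 T cells. Tnfrsf9 was nearly level in control library 2, at 6.97 CPM in CD8 T and 7.05 CPM in CD4 T cells. When each cell was thinned to 1000 UMIs none of the 3 passed (adjusted p = 0.0889, 0.327 and 0.862), at 2000 UMIs only Cd27 did (adjusted p = 0.00592, against 0.251 and 0.284), and Tnfrsf9 was also not called under another cell filter or without control library 1, EV library 1 or EV library 2 (log2 fold changes −0.21 to −0.41).

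**Figure D2:**
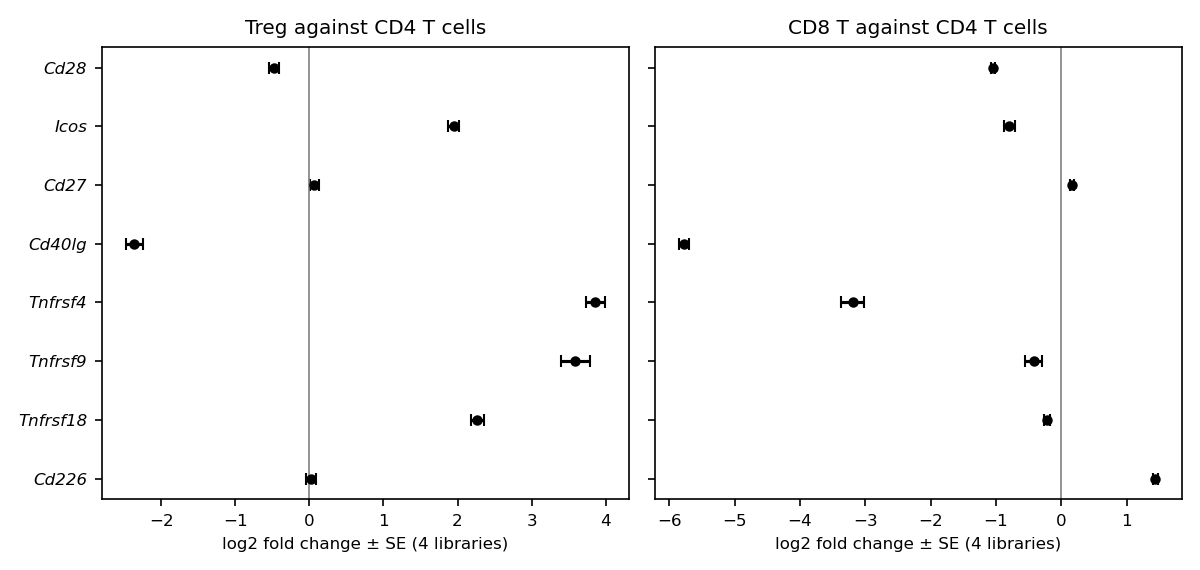
Log2 fold change of each gene in Treg cells (left) and CD8 T cells (right) against CD4 T cells, points with bars of 1 SE, from 4 libraries fitted with library as a block. Tnfrsf4 is the highest point on the left at 3.86, and Cd40lg the lowest point on the right at −5.78.

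B cells served as the background, since Cd3e and T cell receptor genes should be absent there. For the percentages that follow, all gates were scaled together. In B cells the level was 0.16% to 1.73% of the highest T cell gate for Cd28, Icos, Cd40lg, Tnfrsf4, Tnfrsf9 and Cd226, a range that overlaps the 0.55% to 2.05% of the T cell gene Cd3d. Cd27 and Tnfrsf18 stood higher, at 4.87% to 9.31% and 4.59% to 9.01%. Their B cell levels were 23.2, 20.4, 12.9 and 12.7 CPM and 15.3, 15.2, 14.1 and 10.7 CPM.

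The share of cells with at least 1 UMI was compared after thinning each cell to 1000 UMIs, because depth differed between libraries and gates. For Icos 18.3%, 25.6%, 32.5% and 19.4% of Treg cells held a UMI, against 7.61% to 8.57% of CD4 T cells and 0.04% to 0.166% of B cells. Tnfrsf4 was seen in 19.7%, 20.3%, 32.5% and 15.7% of Treg cells and in 1.24% to 2.53% of CD4 T cells. Tnfrsf18 was seen in 17.8%, 16.3%, 27.4% and 18.7% of Treg cells and in 3.96% to 6.21% of CD4 T cells. Tnfrsf9 was seen in 4.23%, 5.81%, 10.3% and 6.72% of Treg cells and in 0.327% to 1.15% of CD4 T cells. Each of these Treg shares lay above each CD4 T share of the same gene. Cd226 was seen in 28.4% to 32.5% of CD8 T cells and in 12.9% to 14.7% of CD4 T cells. In B cells the median depth was 4142 to 5811 UMIs before thinning. Their background shares were 0.0931% to 0.288% for Tnfrsf4, 0.0698% to 0.133% for Tnfrsf9 and 0.103% to 0.24% for Cd226. The B cell share of Tnfrsf18 was 1.09% to 1.48%. Its B cell level, taken relative to the highest T cell gate, stood above that of the T cell gene Cd3d. Before thinning, Icos was seen in 46.0% to 60.7% of Treg and 28.9% to 38.8% of CD4 T cells, Tnfrsf4 in 52.2% to 62.4% and 5.62% to 10.1%, Tnfrsf18 in 60.6% to 69.2% and 21.4% to 31.0% and Tnfrsf9 in 21.6% to 29.9% and 2.87% to 4.41%. Cd226 was then seen in 86.0% to 89.9% of CD8 T cells. No Treg or CD8 T cell, 1 CD4 T cell of control library 2 and 6 to 9 B cells per library were too shallow to be thinned. With cells thinned to 1000 UMIs, EV and control shares of Icos overlapped for both CD4 T and CD8 T cells. In the library order used above they were 7.61%, 8.37%, 8.29% and 8.57% of CD4 T cells. Of CD8 T cells they were 5.71%, 5.70%, 6.48% and 4.21%. At 2000 UMIs a cell Icos was seen in 12.4%, 11.8%, 15.7% and 13.2% of CD4 T cells. It was then seen in 11.1%, 9.84%, 8.88% and 9.23% of CD8 T cells, and neither pair of groups overlapped at this depth. The same held for Cd226 and Cd40lg in CD4 T cells and for Cd28, Tnfrsf18 and Tnfrsf4 in CD8 T cells. It also held for Cd226 and Tnfrsf18 in Treg cells. At 1000 UMIs, Cd40lg and Tnfrsf18 were apart in CD4 T cells and Cd226, Cd28 and Tnfrsf18 in CD8 T cells. In Treg cells Cd226, Cd27, Tnfrsf18 and Tnfrsf9 were apart at 1000 UMIs. EV minus control for Tnfrsf18 in CD8 T cells was −0.62 percentage points at 1000 and 0.34 at 2000 UMIs. How often shares of all genes were apart was not computed. For levels it was 49.7% of genes in CD4 T and CD8 T cells and 37.1% in Treg cells. With 2 libraries against 2 the exact two-sided permutation test on EV and control shares cannot go below p = 0.333, and no share difference could pass.

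**Figure D3:**
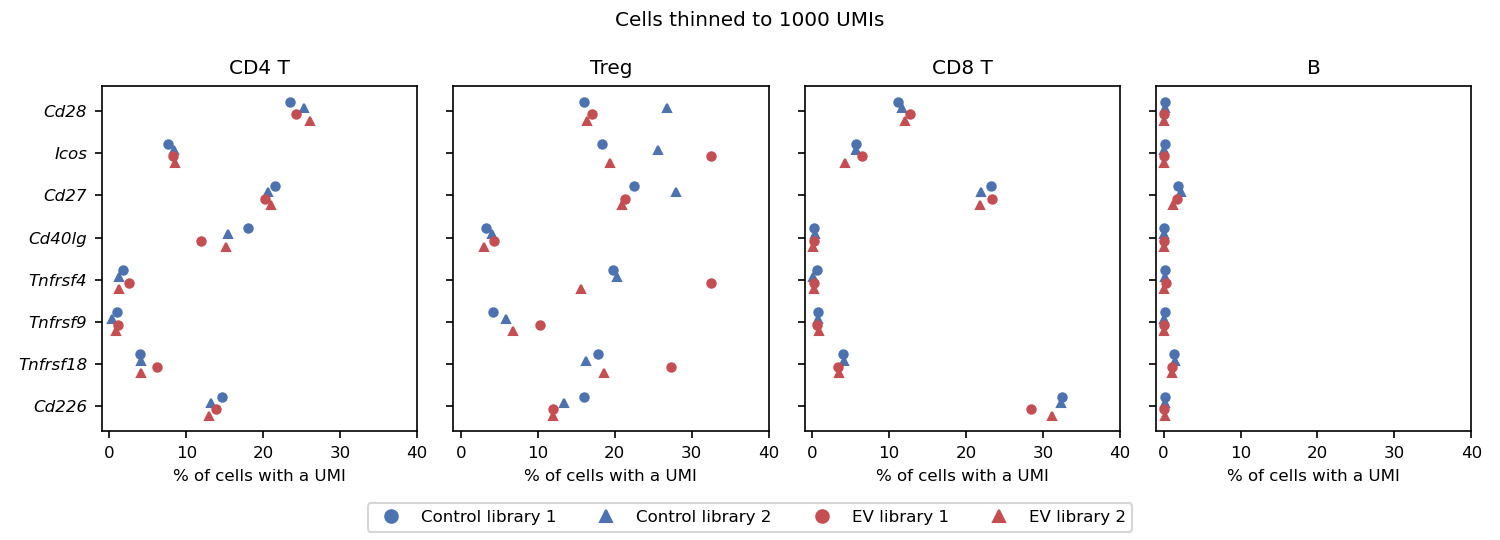
Percent of cells in each gate with at least 1 UMI of each gene after each cell was thinned to 1000 UMIs, 1 point for each library (circles for libraries 1, triangles for libraries 2, blue for control, red for EV). In Treg cells EV library 1 stands at 32.5% for Icos and for Tnfrsf4, to the right of the other 3 libraries.

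Within a gate the UMIs of the 8 genes were spread unevenly over cells. In each library the top 10% of Treg cells held 68.7% to 83.3% of the Tnfrsf9 UMIs, 46.5% to 69.5% of the Tnfrsf4 UMIs and 50.8% to 67.3% of the Icos UMIs, against 36.9% to 48.2% for Tnfrsf18 and 27.6% to 31.2% for Cd27. Cd40lg, with only 36 to 66 UMIs in a library's Treg cells, was at 68.2% to 83.7%, and this share is high for any gene with few UMIs. In EV library 1, 1 Treg cell held 77 of the 305 Tnfrsf9 UMIs. The same share of CD4 T cells held 64.5% to 66.7% of the Icos UMIs.

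EV against control was tested in each gate with 2 libraries a group. In CD4 T cells none of the 8 genes passed, where 2.36% of 11733 genes did. At an unadjusted p under 0.05, 4 of the 8 genes were called (Icos, Tnfrsf4, Cd226 and Cd40lg), where 17.7% of all genes were, and DESeq2 called none of the 8 at an adjusted p under 0.05. The 2 EV values were both above or both below the control values for 6 of the 8 genes, where 49.7% of all genes tested were apart in this way. Icos was at 83.1 and 97.6 CPM in the control and at 127 and 109 CPM in the EV libraries, which gave a log2 fold change of 0.38 ± 0.11 (SE, adjusted p = 0.0868). Both EV libraries were above both control libraries. Tnfrsf4 was at 21.6 and 19.6 CPM in the control and at 31.4 and 24.2 CPM in the EV libraries, which gave a log2 fold change of 0.42 ± 0.14 (SE, adjusted p = 0.144). Cd226 was at 167 and 174 CPM in the control and at 141 and 144 CPM in the EV libraries, which gave a log2 fold change of −0.25 ± 0.09 (SE, adjusted p = 0.156). Cd40lg was at 185 and 181 CPM in the control and at 141 and 168 CPM in the EV libraries, which gave a log2 fold change of −0.24 ± 0.10 (SE, adjusted p = 0.239). Tnfrsf9 had a log2 fold change of 0.42 ± 0.23 (SE, adjusted p = 0.356) with overlapping groups. Cd28 (0.09), Cd27 (−0.07) and Tnfrsf18 (0.01) had log2 fold changes within 0.1 of 0.

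The values of Icos and Tnfrsf4 in CD4 T cells moved with the way cells were weighted and chosen. With each cell thinned to 1000 UMIs, so that deep cells no longer counted for more, the log2 fold changes of Icos and Tnfrsf4 were 0.03 and 0.05 (adjusted p = 0.971 and 0.978). At 2000 UMIs, a setting added after seeing the data, they were 0.22 and −0.29 (adjusted p = 0.492 and 0.633). Each is 1 random draw, which left 86 to 162 Icos UMIs per library at 1000 and 196 to 268 at 2000 UMIs a cell. Tnfrsf4 kept far fewer. In control libraries 1 and 2 and EV library 1 it had 23, 32 and 26 UMIs at 1000 and 58, 58 and 35 at 2000. The median depth of CD4 T cells was 6007 and 6978 UMIs in the control and 8363 and 7560 UMIs in the EV libraries. Icos was called under the stricter gate (0.51, adjusted p = 0.0158), without the filter on low counts (0.39, adjusted p = 0.0106) and under the other cell filter (0.42, adjusted p = 0.0321). Of all genes tested, 275 of 11639, 825 of 19634 and 321 of 11878 were called in these settings. Tnfrsf4 was called without the filter on low counts (0.43, adjusted p = 0.0438). With a replicate block Icos and Tnfrsf4 were called (adjusted p = 0.00447 and 0.0336), where 879 of 11733 genes were, in place of 277. Without EV library 1 the log2 fold changes were 0.27 for Icos and −0.23 for Cd226. Without EV library 2 they were 0.49 for Icos, 0.62 for Tnfrsf4, −0.37 for Cd40lg, −0.27 for Cd226 and 0.66 for Tnfrsf9. Both fits with an EV library left out called more of all genes than the main test. Leaving out the CD4 T cells with an Il2ra or Ikzf2 UMI, an alternative added after seeing the data, gave log2 fold changes of 0.40 for Icos and 0.88 for Tnfrsf4 (adjusted p = 0.0533 and 0.0714).

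In Treg cells none of the 8 genes passed, where 0.124% of 8876 genes did, and DESeq2 called none of the 5 to which it gave an adjusted p. At an unadjusted p under 0.05, Tnfrsf9 and Icos were called, where 7.57% of all genes were. The 2 EV values were both above or both below the control values for 2 of the 8 genes, Tnfrsf9 and Cd226, where they did not overlap for 37.1% of all genes. Tnfrsf9 was at 64.2 and 114 CPM in the control and at 296 and 117 CPM in the EV libraries, which gave a log2 fold change of 1.22 ± 0.33 (SE, adjusted p = 0.245). Control library 2 and EV library 2 were nearly level, and EV library 1 stood far above the rest. Without EV library 2 the log2 fold change of Tnfrsf9 was 1.76. With a replicate block it was 1.14 (adjusted p = 6.46e-06), where 112 of 8876 genes were called. Without the filter on low counts it was 1.21 (adjusted p = 1.71e-08), where 154 of 16369 genes were called. In cells thinned to 1000 UMIs it was 1.54 (adjusted p = 0.0459), where 21 of 2945 genes were called. It was called in these 4 of 14 settings, and was 0.95 at 2000 UMIs (adjusted p = 0.68) and 0.40 without EV library 1 (adjusted p = 0.613). Icos (0.45, adjusted p = 0.621), Tnfrsf18 (0.38, adjusted p = 0.706) and Tnfrsf4 (0.28, adjusted p = 0.891) had overlapping groups. Without EV library 2 the log2 fold changes of Icos and Tnfrsf18 were 0.77 and 0.68, and without EV library 1 they were 0.07 and 0.01. Each was called in 1 of 15 settings, the one without EV library 2. The log2 fold changes of Cd226 (−0.29), Cd40lg (−0.18), Cd28 (−0.14) and Cd27 (−0.13) were below 0 and did not pass. The spread between the 2 libraries of a group was wide in Treg cells, as Tnfrsf4 was at 223 and 492 CPM in the control libraries alone. Summed over 7 effector-memory markers, Treg cells were at 874, 1423, 1883 and 947 CPM, and the 2 libraries with the higher sums also held the higher Tnfrsf4 and Icos levels. The 6 B cell markers summed to 524, 139, 568 and 650 CPM in these cells, with none at 0 and control library 2 apart from the rest, and 4 of the 6 had an unadjusted p under 0.05 between EV and control (median log2 fold change 0.92). The part of these markers in the levels was not tested.

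In CD8 T cells none of the 8 genes passed either, where 2.2% of 12284 genes did. DESeq2 called none of the 6 to which it gave an adjusted p, and at an unadjusted p under 0.05 Tnfrsf4 and Cd40lg were called, where 18.2% of all genes were. For 4 of the 8 genes EV and control values were apart, where they did not overlap for 49.7% of all genes. Tnfrsf4 had a log2 fold change of −0.82 ± 0.31 (SE, adjusted p = 0.185) and Cd40lg of −0.81 ± 0.30 (SE, adjusted p = 0.181), the first at levels that overlapped those of B cells. Icos was at 58.8 and 60.7 CPM in the control and at 54.4 and 52.8 CPM in the EV libraries, which gave a log2 fold change of −0.16 ± 0.08 (SE, adjusted p = 0.33). Cd226, the most CD8-biased of the 8, had a log2 fold change of −0.05 ± 0.09 (SE, adjusted p = 0.838). Cd28, Cd27, Tnfrsf9 and Tnfrsf18 had log2 fold changes from −0.08 to 0.05. Without EV library 1, the log2 fold change of Tnfrsf18 was −0.29.

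**Figure D4:**
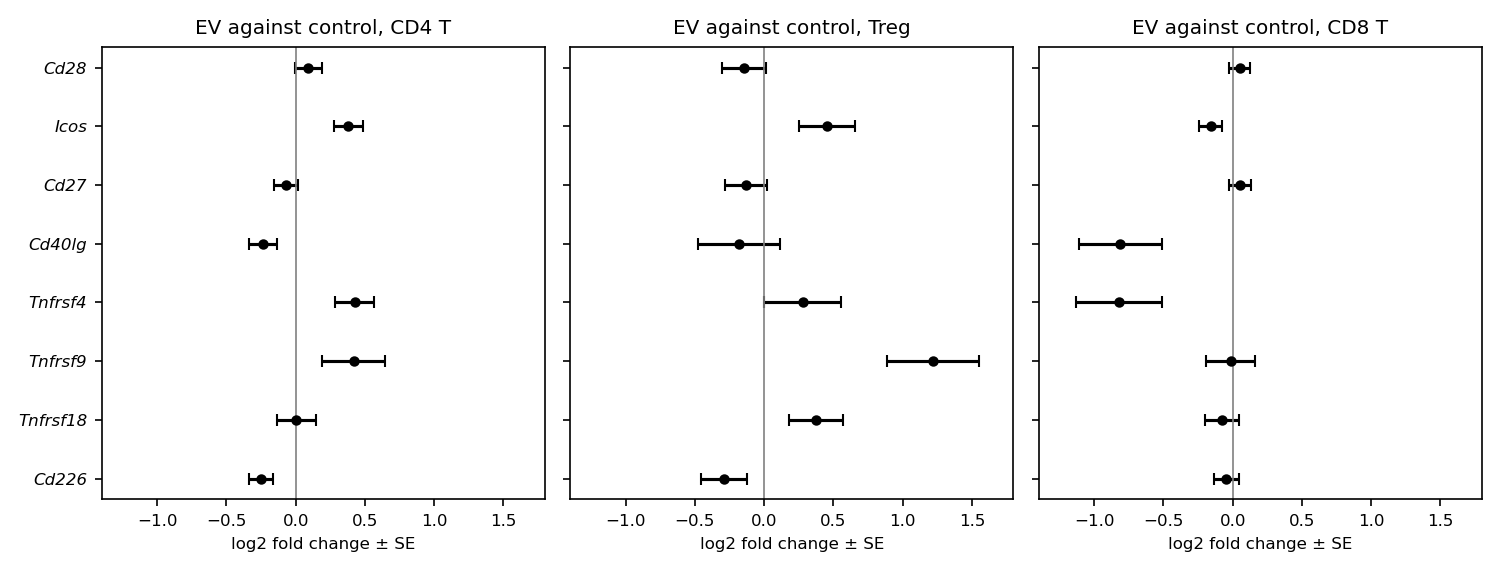
Log2 fold change of each gene in EV against control libraries (2 against 2) in CD4 T, Treg and CD8 T cells, points with bars of 1 SE. Icos lies at 0.38 in CD4 T and at −0.16 in CD8 T cells, Tnfrsf4 at 0.42 and −0.82, and Tnfrsf9 in Treg cells at 1.22.

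The difference of the EV effect between gates was itself tested, with an interaction term in the fit over libraries as blocks. Between CD8 T and CD4 T cells 2 of the 8 genes passed, where 1.08% of 12589 genes did. The EV effect on Icos was lower in CD8 T than in CD4 T cells by a log2 difference of −0.53 ± 0.09 (SE, adjusted p = 0.000801), and that on Tnfrsf4 by −1.24 ± 0.28 (SE, adjusted p = 0.0211). In the CD8 T gate Tnfrsf4 rested on few UMIs and lay near the B cell level. In cells thinned to 1000 UMIs neither gene passed, with log2 differences of −0.14 for Icos (adjusted p = 0.970) and −0.76 for Tnfrsf4 (adjusted p = 0.943). At 2000 UMIs neither passed either, with −0.48 for Icos (adjusted p = 0.384), close to the unthinned size, and 0.42 for Tnfrsf4 (adjusted p = 0.952). Thinning leaves fewer UMIs for the test, and Tnfrsf4 had 5 to 9 UMIs per library in CD8 T cells at 2000 UMIs a cell. The call of Tnfrsf4 was also lost under the stricter gate (−0.87), the other cell filter (−1.16), without control library 2 (−1.08) and without EV library 1 (−1.17). Cd226 had a log2 difference of 0.21 ± 0.05 (SE, adjusted p = 0.0651), and was called without the filter on low counts (0.22, adjusted p = 0.0122) and without EV library 1 (0.28, adjusted p = 0.00209). Between Treg and CD4 T cells none of the 8 passed, where 0.224% of 11624 genes did, and at an unadjusted p under 0.05 Tnfrsf18 was called, where 5.42% of all genes were. Tnfrsf18 had a log2 difference of 0.38 ± 0.15 (SE, adjusted p = 0.868) and Tnfrsf9 of 0.74 ± 0.36 (SE, adjusted p = 0.917). Without control library 2 the difference for Tnfrsf9 was 1.46 and was called (adjusted p = 0.00748).

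In B cells 2 of the 8 genes fell, Cd27 and Cd226, where 2.55% of 13270 genes were called, and DESeq2 called the same 2 genes of the 5 to which it gave an adjusted p. For 6 of the 8 genes EV and control values were apart, where they did not overlap for 51.8% of all genes. Cd27 was at 23.2 and 20.4 CPM in the control and at 12.9 and 12.7 CPM in the EV libraries, which gave a log2 fold change of −0.77 ± 0.11 (SE, adjusted p = 0.0142). Cd226 was at 4.66 and 3.98 CPM in the control and at 1.57 and 1.53 CPM in the EV libraries, which gave a log2 fold change of −1.47 ± 0.25 (SE, adjusted p = 0.023). T cell genes in the B gate moved the same way. The 5 CD4 T markers summed to 41.2, 29.8, 17.5 and 13.8 CPM, Cd3e was at 0 by the gate, and Cd3g (−1.22), Trac (−0.96) and Cd8b1 (−1.56) were called lower, whereas Cd3d (−1.19, adjusted p = 0.0587) did not pass. The libraries' shares of B cells were 37.0%, 31.7%, 59.6% and 50.4%. Under the stricter gate, which leaves out B cells with any Cd3d, Cd3e or Cd3g UMI, Cd226 was not called (−0.81, adjusted p = 0.378) and Cd27 was (−0.63, adjusted p = 0.0365). Cd226 was also not called with doublets removed (−0.86, adjusted p = 0.195), and in cells thinned to 1000 or 2000 UMIs Cd27 was not (−0.53 and −0.48, adjusted p = 0.198 and 0.103). Without control library 1 neither passed (adjusted p = 0.0803 for Cd27 and 0.0983 for Cd226). Tnfrsf18 in B cells had a log2 fold change of −0.30 ± 0.15 (SE, adjusted p = 0.313), and of −0.51 without EV library 1. Cd28 was at 3.51 and 2.28 CPM in the control and at 1.57 and 0.878 CPM in the EV libraries. Its log2 fold change was −1.23 ± 0.37 (SE, adjusted p = 0.128), and −1.72 without EV library 1. Cd28 was called without the filter on low counts (−1.19) and with a replicate block (−1.25), where 1392 of 21630 and 1182 of 13270 genes were called.

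Within the CD4 T gate Icos was higher in cells with a UMI of Pdcd1, an inhibitory receptor of activated and follicular helper cells, given here as a description with CPM taken from the summed UMIs of each set. It was at 328, 426, 349 and 394 CPM in cells with a Pdcd1 UMI and at 76.7, 84.6, 106 and 93.1 CPM in those without. Each of the first values lay above each of the others. Of 4 other markers used in the same way, a UMI of S100a4 went with 3.29 to 8.73 times the Icos level, of Il2ra with 1.66 to 4.23 times and of Cd44 with 2.19 to 3.18 times, and the ratios for the follicular helper marker Cxcr5 were 0.984 to 1.89. Pdcd1 was seen in 28 of 1288, 47 of 1531, 50 of 869 and 54 of 1202 CD4 T cells of the 4 libraries. The shares, in cells that were not thinned, ran from 2.17% to 5.75% and were higher in both EV than in both control libraries. The median CD4 T cell was also deeper in the EV libraries (8363 and 7560 UMIs) than in the control libraries (6007 and 6978 UMIs). How often shares of all genes were apart was not computed, and for levels in CD4 T cells it was 49.7% of genes. The part of these Pdcd1 shares in the EV values of Icos was not tested.

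The other genes of the pathway were read from lists chosen by role. Ligands were measured best in B cells, where 6 of 10 could be tested and none passed with edgeR or DESeq2 (2 at an unadjusted p under 0.05). In CD4 T, Treg and CD8 T cells 4, 4 and 5 ligands were tested, and none passed with either tool or at an unadjusted p under 0.05. Cd86, a ligand of Cd28, was at 109, 124, 219.7 and 143 CPM in B cells (log2 fold change 0.64, adjusted p = 0.103), Icosl at 105, 94.6, 75.9 and 85.7 CPM (−0.31, adjusted p = 0.140) and Cd40, the receptor for Cd40lg, at 104, 96.8, 73.1 and 97.7 CPM (−0.24, adjusted p = 0.359). Cd70, Tnfsf4, Tnfsf18 and Nectin2 had at most 6 UMIs in any library's B cells and were not tested. Of the inhibitory receptors that share ligands with the 8, Ctla4, Tigit and Cd96, 2 could be tested in CD4 T cells (Tigit could not) and 3 in Treg and CD8 T cells, and none was called between EV and control with edgeR or DESeq2 (1, 1 and 0 at an unadjusted p under 0.05), and Ctla4 (3.39) and Tigit (adjusted p = 1.23e-07) were higher in Treg than in CD4 T cells.

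Of 18 adaptors and kinases, 1 rose in CD4 T cells, none in Treg and none in CD8 T cells (4, 2 and 2 at an unadjusted p under 0.05, where 17.7%, 7.57% and 18.2% of all genes were, and 1, 0 and 0 with DESeq2), and the medians of the list were 0.10, 0.13 and 0.08 on the log2 scale, where the medians of all genes tested were 0.0013, 0.0027 and 0.00033. The one was Malt1, the paracaspase downstream of antigen and costimulatory receptors, at 163, 170.1, 247 and 223 CPM in CD4 T cells, a log2 fold change of 0.50 ± 0.09 (SE, adjusted p = 0.0174). Its EV effect was lower in CD8 T than in CD4 T cells by a log2 difference of −0.58 (adjusted p = 1.8e-05). None of the 5 NF-kB subunits passed in CD4 T, Treg or CD8 T cells with edgeR or DESeq2 (3, 0 and 1 at an unadjusted p under 0.05, medians 0.24, −0.05 and 0.10). Of 13 costimulation targets, Batf, a transcription factor of activated T cells, rose by 0.84 ± 0.13 (SE, adjusted p = 0.0062) in CD4 T cells and by 0.77 ± 0.16 (SE, adjusted p = 0.0341) in the CD8 gate. In CD4 T cells Batf was at 34.3, 39.0, 75.4 and 57.1 CPM. The survival factor Bcl2 rose in CD8 T cells (0.47 ± 0.11 SE, adjusted p = 0.0446), and no target passed in Treg cells with edgeR or DESeq2, where 11 of 13 were tested (1 at an unadjusted p under 0.05). None of the 7 other costimulatory receptors tested passed in CD4 T, Treg or CD8 T cells with edgeR or DESeq2 (1 in each at an unadjusted p under 0.05).

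Markers of T cell state moved beside the 8 genes, and their part in the results was not tested. In CD4 T cells S1pr1, the receptor for exit from the node, fell by 0.61 on the log2 scale (adjusted p = 0.0449). The effector-memory markers Itgb1 (1.08) and S100a4 (−0.86) were called in opposite directions, and the follicular helper marker Tox2 rose (1.70, adjusted p = 0.0164). Eomes, of the list of NK markers, rose from a low level (2.67, adjusted p = 0.00907). All 6 genes of that list summed to only 9.58, 7.02, 18.9 and 12.5 CPM in CD4 T cells. The summed follicular helper markers of CD4 T cells were 148, 162, 223 and 192 CPM, with none of the 6 at 0. Each of the 6 passed at an unadjusted p under 0.05, where 17.7% of all genes did, and only Tox2 passed after adjustment. In CD8 T cells S1pr1 (−0.59) and Mki67 (−1.37) were called lower, and Cxcr3 (0.52) and Eomes (1.10) higher. DESeq2 did not call S1pr1 in CD4 T cells (adjusted p = 0.464) or Cxcr3 in CD8 T cells (adjusted p = 0.0655) and gave Mki67 no adjusted p. No marker list had a called gene in Treg cells with edgeR, and DESeq2 called 1 naive T marker there.

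For each of the 8, the genes with the most similar level over the 16 sums (4 gates in 4 libraries) were found among 8167 genes, as a description in which the gates set most of the likeness. Tnfrsf9 and Tnfrsf18 were each other's most similar gene (Pearson r = 0.990 on log2 CPM), and Ctla4 was among the next for both (0.977 and 0.985). Cd27 was most like Cd3g (0.998), Cd28 like Kbtbd11 (0.996), Icos like A430093F15Rik (0.996) and then Cd2 (0.993), Cd226 like Klk8 (0.996), Tnfrsf4 like Ttc39c (0.987) and Cd40lg like Ly6c1 (0.956). Sums of the same library share its cells and depth, and no p was computed.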

How the data were processed

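Single-cell suspensions of draining lymph nodes from 4 libraries, 2 a group, were read by droplet 3′ RNA-seq. The authors deposited raw UMI counts per gene and cell, and per the submitters' processing notes Cell Ranger 7.1.0 and the mm10 genome were used. The annotation release and the handling of introns and strand are not given in the sources used here. Groups and numbers came from the sample labels, and no cell annotation was used.

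Cells with 200 to 5000 genes, at most 20000 UMIs and under 10% mitochondrial UMIs were kept and gated by the presence or absence of a UMI. Counts were summed per library and gate, because cells of a library are not replicates, whereas the study tested cells. It set the cells of each EV library against both controls and kept genes that passed for both EV libraries in the same direction. Sums were filtered with filterByExpr, scaled by TMM and tested with edgeR's quasi-likelihood test, with Benjamini-Hochberg adjustment over all genes tested and a threshold of 0.05. Contrasts between gates had library as a block. Each log2 fold change is EV over control, or the named gate over CD4 T cells. For EV against control, p-values measure the spread between libraries. Where library was a block, they measure how the difference between gates varied from library to library. A pooled sum weights a cell by its depth, and a gate that needs an absent UMI can admit cells in which the gene was missed.

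Alternatives were DESeq2 in place of edgeR, DESeq2's median-ratio scaling (RLE), no filterByExpr, a replicate block, cells thinned to 1000 UMIs, a cell filter without upper limits and with a mitochondrial limit of 5%, removal of doublets called by Scrublet at an expected rate of 6% (1.49% to 3.75% of cells per library were marked), a stricter gate, cells under a ribosomal limit of 60%, and each library left out. Shares of cells were also computed unthinned and at 2000 UMIs. One other choice of cells is not reported here. Added after seeing the data were fits on cells thinned to 2000 UMIs and CD4 T cells without an Il2ra or Ikzf2 UMI. Doublets were otherwise kept. The 8 genes and all lists were chosen with earlier results of these data known. Outside the 8, the genes named were at most 4 called members with the largest change per list and gate, ligands in B cells with their level, and the 3 most similar genes by Pearson's r of log2 (CPM + 1) among genes with a mean of at least 10 CPM. The inhibitory receptors, Cd40, the T cell genes in B cells and the split by Pdcd1 were chosen after their values were seen. Scripts were tested on simulated data. For EV against control 78.4% of genes changed by 1 on the log2 scale were recovered in CD4 T cells (11548 genes) and 55.6% in Treg cells (8598 genes). In B cells 72 of 99 such genes were recovered. Genes that were not changed gave 9 false calls in CD4 T, 10 in Treg, 11 in CD8 T and 27 in B cells. Changes under 1, such as those of the 8 genes in CD4 T cells, were not simulated.

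The fits ran in R 4.3.3 with DESeq2 1.42.0, edgeR 4.0.16 and limma 3.58.1, and the remaining steps in Python 3.11.15 with scanpy 1.11.5, pandas 2.3.3, numpy 2.4.6, scipy 1.17.1 and matplotlib 3.10.9.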

Additional observations from a re-analysis of the deposited data

Results flagged for a closer look

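The EV effect on 2 of the 8 genes differed between CD8 T and CD4 T cells by the test of the difference itself, an interaction term in edgeR's quasi-likelihood fit with library as a block. For Icos the log2 fold change between EV and control was 0.38 in CD4 T and −0.16 in CD8 T cells, a log2 difference of −0.53 (adjusted p = 0.000801). For Tnfrsf4 the values were 0.42 and −0.82, a log2 difference of −1.24 (adjusted p = 0.0211). In CD8 T cells Tnfrsf4 lay near its B cell level. In cells thinned to 1000 UMIs the differences were −0.14 and −0.76, and at 2000 UMIs −0.48 and 0.42, and none of these passed.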

How the results depend on the processing

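Over the alternatives the log2 fold changes given in the report (all 8 genes in the T cell gates and between gates, 4 in B cells and 5 differences of the EV effect) kept their direction and their side of the threshold in 558 cases, were newly called in 27, lost a call in 22 and turned their sign in 31, and the cause was not tested. With 2 libraries a group, leaving one out left a lone library that was assumed to vary like the other group. Over all genes tested, libraries of the same number did not deviate together (correlations of 0.04, −0.07, 0.08 and 0.02 in CD4 T, Treg, CD8 T and B cells). This check showed no pairing by number and cannot exclude one. With a replicate block 879, 112, 1018 and 1182 genes were called between EV and control in CD4 T, Treg, CD8 T and B cells, in place of 277, 11, 270 and 338. Without filterByExpr the counts were 825, 154, 857 and 1392, with 65 and 211 for the difference of the EV effect between Treg or CD8 T and CD4 T cells (26 and 136 otherwise). DESeq2 called 172 in CD4 T, 20 in Treg and 172 in CD8 T cells. In cells thinned to 1000 UMIs 93, 21 and 134 genes were called in these gates, 896 and 1674 for Treg and CD8 T against CD4 T cells (2791 and 4754 unthinned), and 5 and 9 for the differences of the EV effect. At 2000 UMIs the counts were 179, 2 and 149 in these gates, 1314 and 2571 between gates and 3 and 19 for the differences. The other cell filter gave 0 in Treg, 120 in CD8 T, 688 in B cells and 79 for the difference between CD8 T and CD4 T cells, doublet removal 0 in Treg and 219 in B cells, and the stricter gate 176 in CD8 T, 207 in B cells and 78 for that difference. Leaving out 1 library gave 176 to 2081 in CD4 T (most without EV library 1), 18 to 136 in Treg (most without EV library 2), 187 to 2168 in CD8 T and 97 to 2584 in B cells (most without EV library 1 in both), and 4 to 33 and 84 to 183 for the differences.

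Of the changes whose sign turned, only the difference of the EV effect on Tnfrsf4 between CD8 T and CD4 T cells was called in the report's own test (0.42 at 2000 UMIs). Between EV and control they were Tnfrsf4 in CD4 T cells at 2000 UMIs (−0.29), Tnfrsf18 in CD4 T cells with a replicate block (−0.0084), under the stricter gate (−0.012), at 2000 UMIs (−0.095) and over single libraries left out (−0.24 to 0.24), and Tnfrsf9 in CD8 T cells when thinned (0.0028), under the other cell filter (0.25), the stricter gate (0.049) and with libraries left out (−0.064 to 0.046). Cd28 in Treg cells turned under the stricter gate (0.00031) and with libraries left out (−0.32 to 0.050), as did Tnfrsf4 (−0.19 to 0.95), Cd27 (−0.26 to 0.00082) and Cd40lg (−0.57 to 0.29) there, and Tnfrsf18 (−0.29 to 0.13, and 0.044 at 2000 UMIs) and Cd226 (−0.14 to 0.046) in CD8 T cells. Cd28 in B cells turned under the other cell filter (0.14). Between Treg and CD4 T cells Cd27 turned under the other cell filter (−0.14), and Cd226 without filterByExpr (−0.022), thinned (−0.11), under the other cell filter (−0.074), the stricter gate (−0.13) and with libraries left out (−0.033 to 0.067). For the differences of the EV effect, thinning turned Tnfrsf18 in Treg (−0.0013) and Cd226 in CD8 T cells (−0.030). Cd226 could not be fitted in B cells thinned to 1000 UMIs. Depth limits most the genes with few UMIs in a gate, such as Cd40lg (36 to 66 per library in Treg and 16 to 61 in CD8 T cells).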

Other observations

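Many transcripts of the 8 genes lay outside the 4 gates, in cells with a Cd3 UMI that met none of them, such as T cells in which neither Cd4 nor Cd8a was seen. These cells held 27.0% to 34.7% of a library's Cd28 UMIs, 23.8% to 32.8% of its Icos UMIs and 32.4% to 42.4% of its Cd40lg UMIs. For Tnfrsf4 and Tnfrsf9 the shares were 11.5% to 21.2% and 16.4% to 28.8%. Cells outside the gates with no Cd3 UMI held 4.33% to 12.6% of the Tnfrsf9 UMIs, against 0.0316% to 0.141% of the Cd40lg UMIs and 0.351% to 0.489% of the Cd28 UMIs. Only 445 to 693 Tnfrsf9 UMIs were seen per library, so that its shares rest on few transcripts.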
